A study of Mus musculus with 2 samples.

Results

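Non-cycling PyMT-M tumor cells are Rhox5-positive, Krt8-positive cells that passed a sort for endothelial cells in macrophage-rich mouse mammary tumors and were then chosen for tumor gene UMIs and for at most 1 UMI of 4 endothelial genes. They were chosen by measured counts, cell by cell: at least 2000 detected genes, at most 10% mitochondrial UMIs (unique molecular identifiers, counted as molecules), at least 3 UMIs of Krt8, Krt18 and Rhox5 together, at most 1 UMI of Pecam1, Emcn, Flt1 and Kdr together, at most 1 of Ptprc, Tyrobp and Laptm5 together, and under 3000 CPM (counts scaled by each cell's or group's total) of Col3a1. Fewer than 2 of Gm43154, Nptx1, Il24 and Cdh5 were detected in such a cell, and the summed CPM of Mki67, Top2a, Cdk1, Birc5, Ube2c, Cenpf and Nusap1 was under 500. The rule kept 1353 of 7821 PyMT-M barcodes, 17.3% (exact Clopper-Pearson 95% interval 16.5 to 18.2%), of 14795 barcodes in both libraries. The same gate applied to the PyMT-N library kept 3443 of 6974 barcodes, 49.4% (48.2 to 50.6%), and these are the reference cells.

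The study asked how the vessels of tumors rich in macrophages (High-MAC) differ from those of tumors poor in them (Low-MAC). PyMT-M is the High-MAC and PyMT-N the Low-MAC member of a pair of cell sublines from MMTV-PyMT tumors, in which the mouse mammary tumor virus promoter drives the polyoma middle T oncoprotein. Each was injected into the mammary fat pad of female C57BL/6 mice aged 6 to 8 weeks, with no treatment named in the labels, so the hosts share strain and sex, both groups share the transgene, and they differ by the subline. CD31+ CD144+ cells of 3 pooled tumors, sorted after CD45+ cells were depleted, made 1 droplet library per subline, and both are labelled endothelial. With 1 library per group no difference was tested, and every interval below covers counting error only. A pool of tumors from 1 subline carries no animal-to-animal spread, and what separates the sublines cannot be told apart from what separates the libraries. The non-cycling PyMT-M tumor cells held 29145287 UMIs, with a median of 21133 UMIs, 4623 genes and 1.98% mitochondrial UMIs per cell. The PyMT-N reference cells held 77804190 UMIs, with a median of 20697 UMIs and 4800 genes. Of 20 barcodes present in both libraries, 2 were members here, and the same 2 were members of the PyMT-N reference.

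Mammary luminal cells build their intermediate filaments from the partner keratins Krt8 and Krt18, and tumor cells of the MMTV-PyMT model descend from this lineage, although sublines can take on mesenchymal features. Tumor cells also shape the immune infiltrate, since chemokines such as Ccl2 and Ccl7 bind Ccr2 on monocytes, and Csf1 supports the survival of macrophages. Rhox5 is a homeobox gene of an X-linked cluster that is normally active in reproductive tissues and is often switched on in mouse tumor lines.

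The 4 marker genes given for these cells were all detected. Rhox5 was at 654 CPM in the non-cycling PyMT-M tumor cells and 14.4 CPM in the PyMT-N reference. Krt8 was at 343 and 812 CPM. Rhox5 and Krt8 took part in the rule, so their presence is no finding. Lgals3 (galectin-3, a lectin of tumor cells and macrophages) was at 1765 and 132 CPM. Selenbp1, a selenium-binding protein, was at 60.8 and 3.48 CPM. Rhox5, Lgals3 and Selenbp1 were thus higher than in the PyMT-N reference, and Krt8 was lower. Cycling PyMT-M tumor cells, those of the same gate with at least 500 CPM of the cycle genes, were closer. Against them Lgals3 was 1.51-fold and Selenbp1 1.90-fold higher, both under 2-fold. Cells of the same libraries that passed a mirrored gate for endothelial genes (at least 3 UMIs of the 4 endothelial genes, 370 cells in PyMT-M and 1146 in PyMT-N) held Lgals3 at 64.9 and 13.6 CPM and Selenbp1 at 2.27 and 2.17 CPM. Lgals3 was higher still, at 2511 CPM, in the 19 PyMT-M cells that passed a leukocyte gate. After each cell was thinned to 5000 UMIs, Lgals3 had a UMI in 97.04% of the non-cycling PyMT-M tumor cells (99.6% unthinned) and Selenbp1 in 22.4% (47.2% unthinned). In PyMT-M endothelial-gate cells, with a median of 6566.5 UMIs before thinning, the thinned shares were 24.01% and 1.64%. Thinning left out 2 of 1353 tumor cells and 66 of 370 endothelial-gate cells. At the lower edge of the gate, 16 members had exactly 3 UMIs of Krt8, Krt18 and Rhox5, and 9 cells just outside it had 2, against a median of 20 over members.

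**Figure D1:**
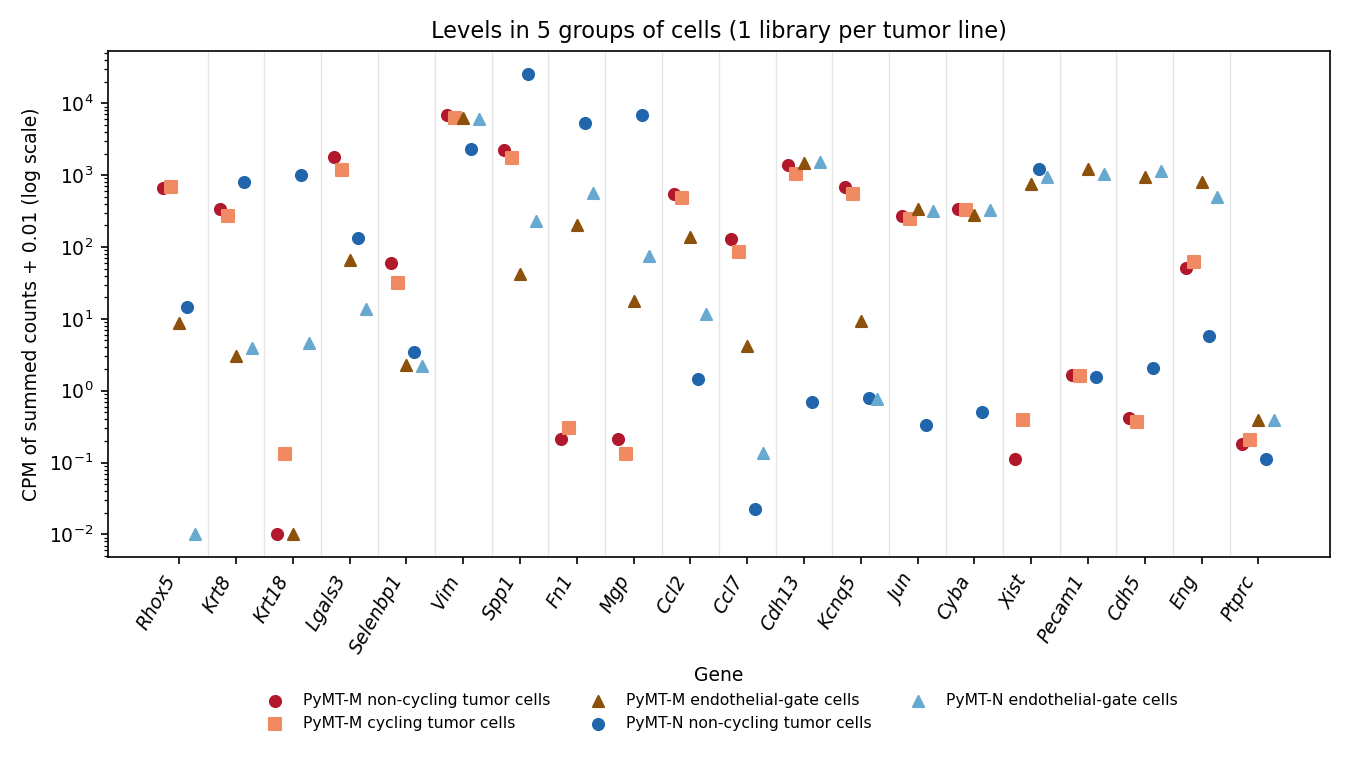
CPM of summed counts (y axis, log scale, 0.01 added) for 20 genes (x axis) in tumor cells and endothelial-gate cells of each library, with 1 point per gene and group of cells. Rhox5, Lgals3, Ccl2 and Ccl7 were highest in PyMT-M tumor cells, whereas Krt18, Fn1, Mgp and Xist sat below 1 CPM there and between 1017 and 6880 CPM in the PyMT-N reference.

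The library is labelled endothelial, and these cells were chosen against endothelial transcripts, so their low endothelial values follow in part from the choice and are no test of the label. Pecam1, which encodes CD31, was at 1.65 CPM in the non-cycling PyMT-M tumor cells and 1229 CPM in PyMT-M endothelial-gate cells, and Cdh5, which encodes CD144, was at 0.412 and 944 CPM. The rule limits both genes, and the endothelial-gate cells were chosen in the opposite way, so the other endothelial markers are a description too. Of the 16 endothelial markers listed, which summed to 90.6 CPM in these cells and 64.9 CPM in the PyMT-N reference, Eng (endoglin, a TGF-beta co-receptor) was the most abundant at 51.4 CPM and Egfl7 (a secreted vascular factor) followed at 32.97 CPM, against 806 and 1583 CPM in PyMT-M endothelial-gate cells. The 2 genes were at 5.72 and 4.9997 CPM in the PyMT-N reference. The ratio of Eng to Egfl7 was thus above 1 in the tumor cells and below 1 in the endothelial-gate cells of the same library. Plvap, a fenestral diaphragm protein at 1103 CPM in PyMT-M endothelial-gate cells, was at 0.755 CPM here and 41.6 CPM in the PyMT-N reference. None of the 16 was at 0. The 18 leukocyte markers summed to 10.2 CPM against 15.7 CPM in the PyMT-N reference. Cd68, a macrophage marker, led them at 3.53 CPM, and the lymphocyte markers Nkg7 and Ms4a1 had no UMI. The 15 fibroblast and pericyte markers summed to 443 against 729 CPM, most of it Col3a1 (302 CPM), and Lum had no UMI. The 9 erythroid and adipocyte markers summed to 9.88 against 1.76 CPM, led by Fabp4, and Hbb-bt and Cfd had no UMI. The part that free RNA and mixed droplets had in these values was not tested. Requiring no UMI of the endothelial and leukocyte genes left 16.2% of PyMT-M barcodes as members.

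Epithelial genes other than Krt8 ranged from no UMI to over 1000 CPM. The luminal list (32 genes) summed to 1625 CPM, led by Cd9, a tetraspanin (1114 CPM), and the basal list (20 genes) to 617 CPM, led by the integrin Itga6. In each list 9 genes had no UMI. Krt18, the usual partner of Krt8, had 0 UMIs in the non-cycling PyMT-M tumor cells against 79097 UMIs in the PyMT-N reference, where it was at 1017 CPM. With the count of 0 set to 3 counts over the group, Krt18 was 9877-fold lower, and the lower end of the counting interval was 8032. Krt18 is one of the 3 genes that the rule sums, and Rhox5 was at 14.4 CPM in the reference, so this fold is a description of the chosen cells and supports nothing further. Cycling PyMT-M tumor cells held it at 0.123 CPM. Of the other luminal markers used for this check, Epcam was at 4.46 CPM and Cdh1 (E-cadherin) at 0.0686 CPM, Krt7 had 1 UMI, and Krt19 had 0. Krt5, Krt17 and Trp63 of the basal markers had no UMI and Krt14 had 2. Epcam and Cdh1 were at 0.398 and 0.103 CPM in the PyMT-N reference. The polyoma middle T transcript was not analysed here. The cells are called tumor cells by their gate, with Krt8 and Rhox5 as the markers that were detected.

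The cycle limit divided a continuous range in PyMT-M. Of 4523 gated PyMT-M tumor cells, 29.9% (28.6 to 31.3%) were under the limit, against 96.4% (95.8 to 97.03%) of 3570 gated PyMT-N tumor cells. With cells thinned to 5000 UMIs before the limit the shares were 32.8% and 96.4%. The PyMT-M share moved with the limit, to 21.1% at 250 CPM and 48.6% at 1000 CPM, whereas the PyMT-N share stayed between 95.97 and 96.9%. Just inside the limit, at 400 to under 500 CPM, lay 150 PyMT-M cells, and just outside it, at 500 to under 600 CPM, lay 162. The corresponding PyMT-N counts were 3 and 2. The non-cycling PyMT-M tumor cells kept a median of 149 CPM of the 7 cycle genes (quartiles 52.5 and 285), and the PyMT-N reference a median of 0 CPM. No cycle-gene UMI was found in 201 of the PyMT-M and 2164 of the PyMT-N cells. Some comparisons below are also given in those cells alone, an alternative added after the data were seen. It selects cells on cycle-linked genes and leaves fewer genes ranked, and the part that residual cycling had in the comparisons was not tested.

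**Figure D2:**
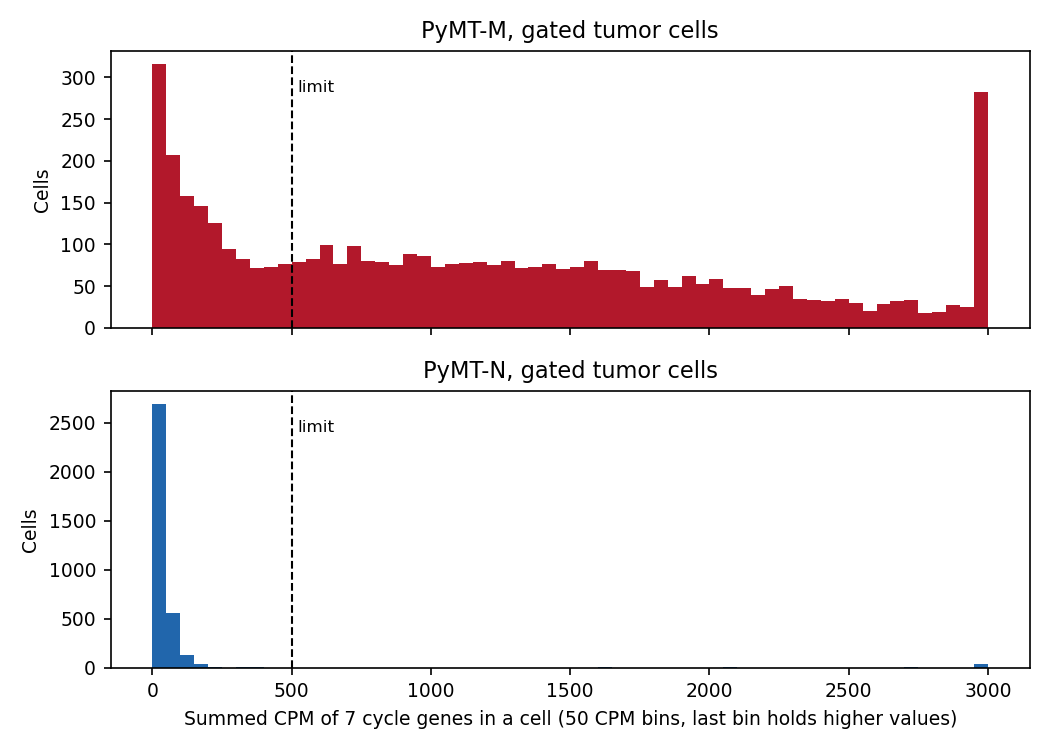
Number of gated tumor cells (y axis) by summed CPM of the 7 cycle genes (x axis, 50 CPM bins) in PyMT-M (top) and PyMT-N (bottom), with the 500 CPM limit as a dashed line. PyMT-M cells ran across the limit without a gap, while 2164 PyMT-N cells sat at 0.

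Non-cycling tumor cells of the 2 libraries differed across much of the transcriptome. Among 11615 genes with at least 200 UMIs over both groups, 1862 (16%) were at least 2-fold higher in PyMT-M and 2708 (23.3%) at least 2-fold lower. Over the ranked genes the median log2 ratio was -0.13, with PyMT-M in the numerator. The balance between both directions depended on the scaling and on the choice of cells. Higher genes were 40.7% of those past 2-fold, and 50.9% (2365 higher and 2284 lower) when mitochondrial, ribosomal-protein and hemoglobin genes were left out of the total, which moved the median log2 ratio to 0.094. They were 29.8% (1075 higher and 2538 lower) in cells with no cycle-gene UMI. With none of Gm43154, Nptx1, Il24 and Cdh5 detected they were 35.35% (1537 higher and 2811 lower). The most abundant transcript was Rpl13, a ribosomal protein, at 16471 CPM against 4583 CPM, and the 15 most abundant genes were ribosomal-protein genes, Eef1a1, Vim, Fth1 and S100a6. Spp1 (osteopontin, a secreted phosphoprotein of bone matrix and tumors) led the PyMT-N reference with 25736 CPM and was at 2270.1 CPM here.

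**Figure D3:**
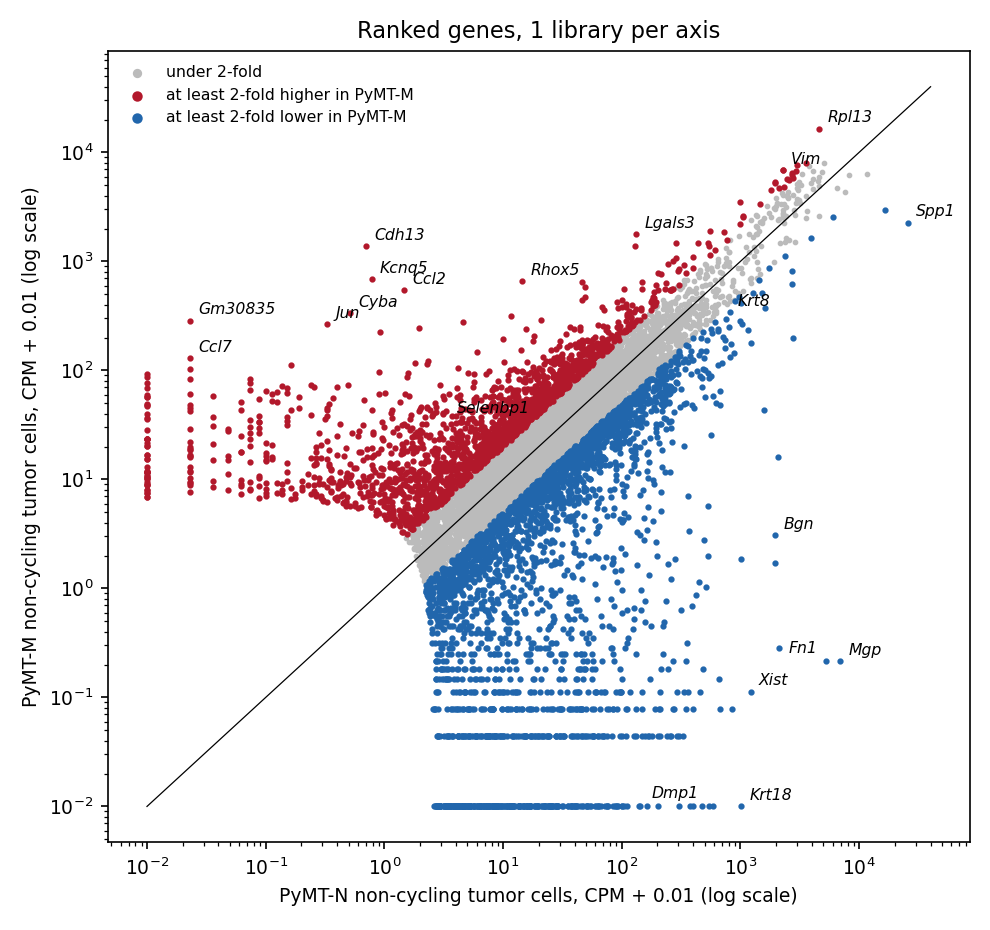
CPM of ranked genes in non-cycling tumor cells of PyMT-M (y axis) and PyMT-N (x axis), both on log scales with 0.01 added. Each point is a gene, colored where the ratio was at least 2-fold, and genes along the left and bottom edges had almost no counts in PyMT-N or PyMT-M respectively.

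Gene lists are described below by the same counts, to be read against these shares of 16 and 23.3%. A member that reached 200 UMIs in only one group was ranked through that group's counts. A list made largely of such members can get its direction from the minimum, and its counts then support nothing about the list.

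A set of genes was on in one subline and off in the other. At least 500 UMIs in one group and at most 3 in the other were counted for 459 genes, of which 40 were on in the non-cycling PyMT-M tumor cells and 419 were off. The PyMT-N group held more UMIs, which makes a gene likelier to reach 500 there. Cycling tumor cells of the same libraries pointed the same way for 40 of the 40 and 418 of the 419. Of the 419, 264 also had at most 3 UMIs in cycling PyMT-M cells. The genes were chosen for extreme ratios between the same libraries, so this agreement is a description. The share of all ranked genes that kept their direction is not given. The 40 included the X-linked genes Rhox1, Rhox2d, Rhox2g, Rhox2h, Xlr3c, Nxf3 and Magea13 and the germ cell genes Tex19.1, Dppa4 and Tdrd1. Rhox1, another homeobox gene of the Rhox cluster, was at 48.04 CPM and had no UMI in the PyMT-N reference. With that 0 set to 3 counts it was 1246-fold higher. Rhox2h (47.01 CPM) and Xlr3c (35.9 CPM) also had no UMI there, but both belong to families of near-identical copies whose reads could be split in counting. Magea13, a melanoma antigen family gene, was at 104 against 0.0129 CPM, and Tex19.1 and Dppa4, genes of germ cells and pluripotent cells, at 59.9 and 68.6 CPM against no UMI. Of the 35 genes in the list of Rhox and other X-linked or germline genes, 5 passed the count minimum and 5 of those were at least 2-fold higher. All but Rhox5 passed it through their PyMT-M counts alone, so this number supports nothing, and 21 members had no UMI in these cells.

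Other genes that were on in PyMT-M have varied roles. The uncharacterized transcript Gm30835 was at 286 CPM against 0.0129 CPM. Rbp4, the plasma retinol carrier, was at 92.1 CPM against no UMI. Gdf15, a stress-induced cytokine, was at 29.2 against 0.0386 CPM, Bcat1, a branched-chain amino acid transaminase, at 83.2 against 0.0129 CPM, and the posterior homeobox gene Hoxd9 at 29.2 against 0.0129 CPM. With so few counts in the lower group the fold is imprecise, and Gdf15 was 757-fold higher with a counting interval of 258 to 3679.

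The genes with the highest ratios and at least 10 UMIs in each group included genes that endothelial-gate cells of both libraries expressed. Cdh13 (T-cadherin, a glycolipid-anchored cadherin) was at 1377 CPM in the non-cycling PyMT-M tumor cells and 0.694 CPM in the PyMT-N reference, a 1984-fold difference (1520 to 2641). Endothelial-gate cells of both libraries held it at 1457 and 1526 CPM. Kcnq5, a voltage-gated potassium channel subunit, was at 685 against 0.771 CPM and was low in endothelial-gate cells of both libraries, at 9.44 and 0.767 CPM. Jun, the AP-1 subunit, was at 266 against 0.321 CPM, and Cyba, the p22phox subunit of NADPH oxidase, at 334 against 0.501 CPM. Endothelial-gate cells resembled the PyMT-M cells for both genes. Jun was at 335 and 313 CPM in endothelial-gate cells of PyMT-M and PyMT-N, and Cyba at 279 and 329 CPM.

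Among the genes that were off in PyMT-M, Xist, the RNA that coats the inactive X chromosome, had 3 UMIs, or 0.103 CPM, against 1223 CPM in the PyMT-N reference. Endothelial-gate cells of the PyMT-M library held Xist at 763 CPM, and 90.1% of them had a UMI after thinning, against 0.148% of the non-cycling PyMT-M tumor cells. The Y-linked genes Kdm5d, Uty, Eif2s3y and Usp9y had no UMI in either tumor group, and the remaining Y-linked gene listed, Ddx3y, had 36 and 74 UMIs. Ddx3y has a close X-linked copy, Ddx3x, with which reads could be shared. Tsix, which overlaps Xist on the other strand, was at 0.0343 and 24.2 CPM. Kdm6a and Kdm5c, X-linked histone demethylases that escape X inactivation, were at 13.7 and 16.4 CPM against 127 and 54.9 CPM, and 5 of the 8 ranked genes of this list (13 listed) were at least 2-fold lower, with 0 higher and 2 ranked through PyMT-N counts alone. Of 29 imprinted genes 11 were ranked, 5 of them through PyMT-N counts alone and 1 through PyMT-M counts alone, so the 8 lower and 1 higher genes support nothing about the list. Mest was at 0.0343 against 82.4 CPM, H19 had no UMI against 8.34 CPM, and Phlda2, the gene in the other direction, was at 51.9 against 0.103 CPM. Pmepa1 (a TGF-beta target that dampens its signaling), Piezo2 (a mechanosensitive channel) and Sox4 (a transcription factor) were at 851, 672 and 539 CPM in the PyMT-N reference, with 2, 2 and 0 UMIs here. Among genes with at least 10 UMIs in each group, the lowest ratio was that of Ctla2a, a cysteine protease inhibitor, at 1.72 against 1955 CPM, followed by Bgn (biglycan) at 3.05 against 1968 CPM. Igfbp7 and the tetraspanin Cd81 were at 1.85 and 1.03 CPM, against 1011 and 516 CPM.

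Matrix genes lay in both directions. Of 25 ranked genes in the matrix and bone matrix list (29 listed), 13 were at least 2-fold lower and 3 at least 2-fold higher, and the list's median log2 ratio was -1.02 against -0.13 over all ranked genes, but 9 of the 25 were ranked through PyMT-N counts alone. Mgp, an inhibitor of calcification, had 6 UMIs here (0.206 CPM) and 6880 CPM in the PyMT-N reference, a fold of 33420 with an interval of 15354 to 91067. Fn1 (fibronectin) had 6 UMIs (0.206 CPM) against 5241 CPM. Both genes were near 0 in these cells and at 4274 and 2352 CPM in the 33 stromal cells of the same library that had at least 3000 CPM of Col3a1. The bone matrix genes Dmp1 and Ibsp were at 0 and 0.446 CPM, against 401 and 222 CPM. Fbn1 (fibrillin) and Postn (periostin) were at 2.78 and 0.343 CPM, against 493 and 113 CPM. In the other direction, Col6a3 was at 475 against 49.4 CPM, Col6a2 at 314 against 114 CPM and Col6a1 at 576 against 294 CPM, the last just under 2-fold at 1.96. Col3a1, which the rule caps in single cells, was 2.54-fold higher.

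Many luminal and basal genes did not reach the count minimum. Of 32 luminal genes 11 were ranked, 4 of them through PyMT-N counts alone and 1 through PyMT-M counts alone, and 9 of the 32 had no UMI here. Jup (plakoglobin, a junctional plaque protein) was at 7.62 against 216 CPM and F11r (the tight junction protein JAM-A) at 0.240 against 32.2 CPM, whereas Ocln (occludin) was at 7.96 against 0.0386 CPM. Of the luminal transcription factors, Gata3 was at 0.103 against 98.2 CPM, Tfap2b had no UMI against 67.4 CPM, and Esr1 (the estrogen receptor) was at 0.480 against 26.1 CPM. Of the 20 hormone response and milk genes 7 were ranked, 6 of them through PyMT-N counts alone, and the milk genes Csn2, Csn3, Wap and Lalba and their regulator Elf5 had no UMI here. Of 20 basal genes 10 were ranked, 4 through PyMT-N counts alone. For these 3 lists no direction is read from the counts. Lgals7 (galectin-7, an epithelial lectin) was at 15.96 against 2064 CPM and Acta2 (smooth muscle actin) at 250.2 against 44.3 CPM.

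Mesenchymal genes were detected in both sublines and lay in both directions. Of 27 ranked mesenchymal transition genes (28 listed), 4 were at least 2-fold higher and 8 lower, with a median of -0.79 against -0.13 over all ranked genes. Of the 27, 2 were ranked through PyMT-M and 4 through PyMT-N counts alone. Twist2 and Loxl2 were among the former and Cdh2 among the latter. The shares over all ranked genes were 16 and 23.3%, and 20 of the 27 ratios were below 0 and 7 above it. Vim (vimentin) was at 6917 CPM here and 2277 CPM in the PyMT-N reference. The transition factors Zeb1, Zeb2 and Twist1 were at 164, 256 and 109 CPM, each within 2-fold of the PyMT-N values of 253, 129 and 199.8 CPM. Twist2 was at 115 against 2.27 CPM and Loxl2, a collagen cross-linking enzyme, at 95.9 against 0.900 CPM. Cdh2 (N-cadherin) was at 0.103 against 41.6 CPM and S100a4 at 815 against 2694 CPM.

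Factors that recruit macrophages differed in direction by gene. Of 13 ranked genes of this list (20 listed), 6 were at least 2-fold higher and 3 lower, with a median log2 ratio of 0.77, and 3 were ranked through PyMT-M and 2 through PyMT-N counts alone. Ccl2 was at 545 CPM in the non-cycling PyMT-M tumor cells and 1.47 CPM in the PyMT-N reference, 372-fold higher (309.6 to 451). Ccl7 was at 129 CPM, with 1 UMI in the whole PyMT-N reference. Both chemokines were detected in many of these cells. After thinning to 5000 UMIs, 61.5% of the non-cycling PyMT-M tumor cells had a Ccl2 UMI and 27.2% a Ccl7 UMI (83.7 and 52.3% unthinned), against 0.349 and 0% of the PyMT-N reference and 18.1 and 2.30% of PyMT-M endothelial-gate cells. Levels were higher still in the PyMT-M leukocyte-gate cells, at 1172 CPM of Ccl2 and 813 CPM of Ccl7. Mif (macrophage migration inhibitory factor) was at 1463 against 284 CPM, and Ccl5, a T-cell and monocyte chemokine, at 42.1 against 3.32 CPM. Csf1 was within 2-fold, at 64.7 against 41.5 CPM, as was Il34, the second ligand of the Csf1 receptor, at 87.5 against 164 CPM. Cxcl12 and Cx3cl1 were lower, at 0.206 and 1.48 CPM against 57.1 and 34.5 CPM. Spp1, the most abundant gene of the list in these cells, was 11.3-fold lower. The list summed to 6503 CPM against 26568 CPM in the PyMT-N reference, opposite in direction to its median. Of the 18 neutrophil factors only 4 were ranked, all through their PyMT-N counts alone, so no direction is read from them. Csf3 was at 0.618 against 5.94 CPM and the iron-binding protein Lcn2 at 4.73 against 13.2 CPM. In cells with no cycle-gene UMI the log2 ratios of Csf3 and Lcn2 reversed to 0.12 and 0.071.

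Metabolic and biosynthetic lists stood mostly higher in PyMT-M. All 30 ribosome biogenesis and Myc target genes were ranked and 27 were at least 2-fold higher, with none lower and a median of 1.67. Myc itself was at 153 against 14.3 CPM, and Srm and Odc1, enzymes of polyamine synthesis, at 249 and 378 CPM against 36.7 and 68.5 CPM. In cells with no cycle-gene UMI the list had 25 of 30 genes at least 2-fold higher, 0 lower and a median of 1.62. Of all 10133 genes ranked in those cells 10.6% were higher and 25% lower by this measure. Cytosolic ribosomal proteins had a smaller median of 0.77, with 9 of 30 at least 2-fold higher and Rps27 in the other direction at 1501 against 2397 CPM.

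Serine synthesis enzymes were higher. Of 29 ranked ATF4 and serine synthesis genes (30 listed), 19 were at least 2-fold higher and 2 lower. Of the 29, 2 were ranked through PyMT-M and 2 through PyMT-N counts alone. Phgdh, Psat1 and Psph make serine from a glycolytic intermediate. Phgdh was at 316 against 11.7 CPM, Psat1 at 105 against 4.13 CPM and Psph at 69.2 against 11.4 CPM. The folds of Phgdh and Psat1 were 27.1 (25.3 to 29.03) and 25.4 (22.6 to 28.6). Shmt2 and Mthfd2, which pass the serine carbon to mitochondrial folate, were at 90.4 and 99.1 CPM against 10.98 and 14.4 CPM, and Asns (asparagine synthetase) at 288 against 20.7 CPM. The stress-induced chromatin protein Nupr1 was lower, at 236 against 1151 CPM, as was the lipoprotein receptor Vldlr, with no UMI against 5.49 CPM. In cells with no cycle-gene UMI 14 of 25 ranked genes were at least 2-fold higher and 2 lower, against 10.6 and 25% of all genes ranked there, and the median was 1.14.

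Of 30 glycolysis and hypoxia genes, 18 were at least 2-fold higher and 1 lower, with a median of 1.40. Of the 30, 3 were ranked through PyMT-M counts alone. Adm (adrenomedullin, a hypoxia-induced vasodilator) was at 123 against 2.33 CPM, Ndrg1 at 205 against 18.4 CPM and Slc16a3, the lactate exporter, at 185 against 17.7 CPM. Ldha (lactate dehydrogenase) was at 1463 against 438 CPM. The gene in the other direction was Ddit4, an inhibitor of mTORC1, at 21.8 against 46.5 CPM. Vegfa was at 30.1 against 58.1 CPM and the hexokinase Hk2 at 50.8 against 98.9 CPM. Cholesterol and fatty acid synthesis had 13 of 27 genes at least 2-fold higher and none lower. In that list 1 gene was ranked through PyMT-M and 1 through PyMT-N counts alone. The higher genes included the sterol synthesis enzymes Mvd (33.6 against 4.42 CPM) and Msmo1 (105 against 19.97 CPM). Of 30 ranked NRF2 and selenium redox genes (34 listed), 10 were at least 2-fold higher and 2 lower. Among these 30, 1 was ranked through PyMT-M and 1 through PyMT-N counts alone. Beside Selenbp1, the glutathione transferase Gstm2 was at 9.54 against 0.591 CPM, and heme oxygenase Hmox1 at 82.1 against 16.99 CPM.

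**Figure D4:**
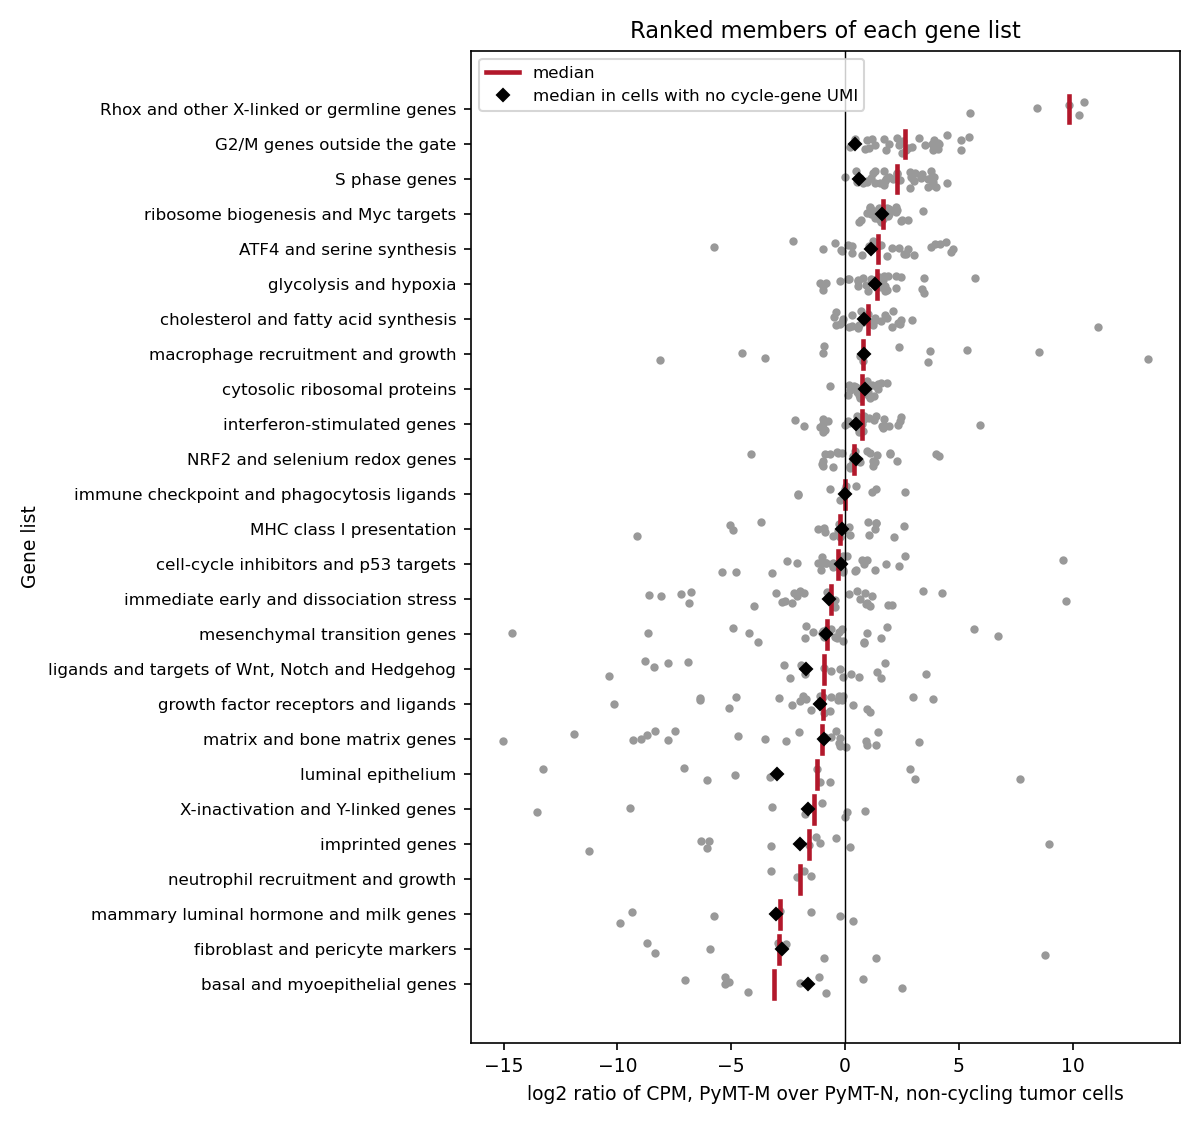
log2 of the CPM in PyMT-M divided by that in PyMT-N, in non-cycling tumor cells (x axis) for each ranked gene (grey points) of the lists with at least 4 ranked genes (y axis), with the median (red bar) and the median in cells with no cycle-gene UMI (black diamond, where at least 4 genes were ranked). The diamonds of the S phase and G2/M lists sit at 0.63 and 0.44, with bars at 2.30 and 2.62. Those of ribosome biogenesis and glycolysis sit at 1.62 and 1.34, with bars at 1.67 and 1.40. The diamonds come from cells selected on cycle genes and from fewer ranked genes in some lists (24 of S phase, 9 of G2/M). The difference between lists was therefore not tested.

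Ranked S phase and G2/M genes were higher in PyMT-M, as were the genes that the cycle limit used. The summed CPM of those 7 genes had a median of 149 in the non-cycling PyMT-M tumor cells and 0 in the PyMT-N reference. The list counts are a description of the chosen cells, and the part that residual cycling had in them was not tested. Of 40 S phase genes 33 were at least 2-fold higher and none lower, with a median of 2.30. Mcm3, a subunit of the replicative helicase, was at 70.9 against 5.58 CPM and Ccne1 (cyclin E1) at 32.5 against 2.06 CPM, whereas Tyms (thymidylate synthase) was at 18.05 in PyMT-M and 17.96 CPM in PyMT-N. G2/M genes outside the rule had 28 of 32 ranked genes (40 listed) at least 2-fold higher and a median of 2.62, but 17 of the 32 were ranked through PyMT-M counts alone, as were 11 of the S phase genes. Both medians were closer to 0 in cells with no cycle-gene UMI. In the 201 PyMT-M and 2164 PyMT-N cells with no cycle-gene UMI, 9 of 24 ranked S phase genes were at least 2-fold higher and 1 lower, with a median of 0.63, and 2 of 9 G2/M genes were higher and 0 lower, with a median of 0.44. Over the 10133 genes ranked in those cells 1075 (10.6%) were at least 2-fold higher and 2538 (25%) lower. In cycling tumor cells 4 of 40 S phase genes were at least 2-fold higher and 1 lower. Of 40 G2/M genes 1 was higher and 7 lower there. Over the 10661 genes ranked in cycling tumor cells 1723 were at least 2-fold higher and 1314 lower. The median log2 ratio in those cells was 0.12 for S phase and -0.65 for G2/M genes.

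Cell-cycle inhibitors included genes in both directions. Of 29 ranked inhibitors and p53 targets (32 listed), 5 were at least 2-fold higher and 8 lower, near the shares of 16 and 23.3% over all ranked genes. Cdkn1a, which encodes the inhibitor p21, was at 99.6 against 19.099 CPM, the D-type cyclin Ccnd2 at 241 against 39.4 CPM, and Gadd45a, a stress-induced growth arrest gene, at 111 against 642 CPM. Cdkn2a, which encodes p16 and p19Arf, had 1 UMI in each group.

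Immediate early and heat shock genes, which tissue dissociation can also induce, split by gene. Of 30 genes 7 were at least 2-fold higher and 14 lower, with 8 ranked through PyMT-N counts alone. Fos was at 3.36 against 369.98 CPM, Egr1 at 1.68 against 247 CPM and Junb at 131 against 823 CPM, while Jun, as above, and Fosl1 were higher, Fosl1 at 193 against 10.04 CPM. The small heat shock protein gene Hspb1 was at 1.96 against 532 CPM. Hspa1a and Hspa1b, near-identical copies whose reads can be split, were at 0.274 and 15.7 CPM against 107 and 129 CPM.

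Interferon-stimulated genes were found in both directions, with more of them higher. Of 37 ranked genes (40 listed, 39 found in the files), 12 were at least 2-fold higher and 3 lower, with a median of 0.74. The shares over all ranked genes were 16 and 23.3%. Of the 37 ratios 29 were above 0 and 8 below it, and 4 genes were ranked through PyMT-N counts alone. Ifi27l2a was at 281 against 4.61 CPM and Bst2 (tetherin, which holds budding virus at the membrane) at 942 against 245 CPM. The transcription factor Irf1 was lower, at 19.8 against 69.3 CPM. In the MHC class I list 7 of 22 genes were at least 2-fold higher and 5 lower, with a median of -0.20 that reversed to 0.02 when mitochondrial, ribosomal-protein and hemoglobin genes were left out of the total, and 5 of the 22 were ranked through PyMT-N counts alone. The heavy chain H2-D1 was at 1857 against 724 CPM and H2-K1 at 410.01 against 509 CPM, and the peptide transporter Tap1 and the immunoproteasome subunit Psmb9 were at 57.2 and 132 CPM against 12.7 and 21.5 CPM. The nonclassical gene H2-T23 (Qa-1) was at 0.103 against 58.96 CPM, with the reservation that H2 genes share sequence. Of 20 immune checkpoint and phagocytosis ligands 10 were ranked, 3 at least 2-fold higher and 2 lower. Cd274 (PD-L1) was at 2.95 and 2.94 CPM, and Cd47, the signal against phagocytosis, at 204 and 199 CPM. Raet1e, a ligand of the activating receptor NKG2D, was at 66.3 against 10.8 CPM.

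Growth factor and signaling genes lay in both directions. Of 25 ranked receptors and ligands (39 listed), 3 were at least 2-fold higher and 12 lower, against 16 and 23.3% of all ranked genes, and 6 were ranked through PyMT-N counts alone. Fgf2 was at 0.0686 against 78.4 CPM, Pdgfrb at 33.3 against 249 CPM and Egfr at 37.1 against 144 CPM, whereas Met, the receptor of hepatocyte growth factor, was at 69.5 against 8.75 CPM and the Egfr ligand Btc at 26.4 against 1.80 CPM. In the Wnt, Notch and Hedgehog list 4 of 19 ranked genes (31 listed) were at least 2-fold higher and 9 lower, with 8 ranked through PyMT-N counts alone, so no direction is read from these counts. Hhip, which binds and dampens Hedgehog ligands, was at 0.0343 against 45.6 CPM, and the Hedgehog receptor and target Ptch1 and the effector Gli2 were at 41.4 and 18.3 CPM against 12.4 and 1.56 CPM. Wnt5a was at 0.206 against 68.7 CPM, and the Wnt effector Lef1 had no UMI against 22.5 CPM.

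Within PyMT-M, few genes were higher in non-cycling than in cycling tumor cells. The 3170 cycling cells of the same gate had a median of 24956 UMIs. Of 10779 ranked genes, 18 (0.167%) were at least 2-fold higher in the non-cycling cells and 284 (2.63%) at least 2-fold lower. This contrast is that of the rule, so the lower genes describe the choice of cells. They were led by Nusap1, a gene of the rule, the histone gene H3c3 (1.03 against 18.9 CPM) and the linker histone H1f5 (7.89 against 131 CPM), and included Cenpf and Ube2c of the rule. Of the 40 S phase genes 17 were at least 2-fold lower, with a median of -0.87, and of the 40 G2/M genes 38, with a median of -2.31. Among the few higher genes, Lcn2 was at 4.73 CPM against 1.06 CPM in cycling cells, Ccn2 (connective tissue growth factor) at 5.52 against 1.26 CPM and Saa3, an acute-phase protein, at 8.92 against 3.23 CPM. Cebpd, a transcription factor of the acute-phase response, was at 12.5 against 5.39 CPM. In PyMT-N, where only 127 cells were over the limit, the non-cycling and cycling levels were 13.2 and 8.43 CPM of Lcn2, 14.7 and 18.6 CPM of Ccn2 and 30.1 and 24.7 CPM of Cebpd. Adm was the most abundant of the 10 highest in PyMT-M, at 123 against 56.3 CPM. The glycolysis and hypoxia list had 2 of 30 genes at least 2-fold higher and 0 lower in this contrast. The 18 higher genes also included Ndrg1 at 205 against 96.3 CPM and Hilpda, a lipid droplet protein, at 118 against 57.2 CPM. The S phase list contributed Ung, a uracil glycosylase, at 21.2 against 10.3 CPM. Ccl2, Ccl7, Rhox5 and Cdh13 were within 2-fold of the cycling cells, at 486, 84.1, 690.3 and 1025 CPM there.

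A further group of PyMT-M tumor cells was set aside by the rule because at least 2 of Gm43154, Nptx1, Il24 and Cdh5 were detected. Cdh5 encodes the endothelial VE-cadherin and Il24 a cytokine of the interleukin-10 family. Under the cycle limit this group held 260 cells with a median of 22988 UMIs, and no PyMT-N cell met it. Nptx1 alone did not separate the groups, since 772 of the 1353 non-cycling PyMT-M tumor cells had a UMI of it, whereas 11 had a UMI of Gm43154, 11 of Cdh5 and 3 of Il24. Requiring none of the 4 genes left 7.11% of PyMT-M barcodes.

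Of 9150 ranked genes, 257 (2.81%) were at least 2-fold higher in the non-cycling PyMT-M tumor cells than in the cells with Cdh5 and Il24, and 162 (1.77%) at least 2-fold lower. Krt8 was higher, at 343 against 97.4 CPM, as were Spp1 (2270.1 against 654 CPM), Lgals3 (1765 against 694 CPM) and Selenbp1 (60.8 against 16.3 CPM). Rhox5 differed little, at 654 against 552 CPM. The highest ratios were those of Gas7, a growth arrest gene (20.96 against 3.17 CPM), Orm1, an acute-phase glycoprotein (9.98 against 1.75 CPM), and Stra6, the receptor for retinol-bound Rbp4 (9.68 against 1.75 CPM). Lower in the non-cycling PyMT-M tumor cells were the neutrophil chemokine Cxcl1 (0.412 against 54.6 CPM), the actin-bundling protein Lcp1 (1.17 against 84.4 CPM), the stromelysin Mmp3 (1.30 against 48.2 CPM) and Lcn2 (4.73 against 110.3 CPM). Interferon-stimulated genes had 7 of 32 ranked genes at least 2-fold higher and none lower, and macrophage recruitment genes 4 of 11. Ccl2 and Ccl7 were within 2-fold, at 462 and 116 CPM in the cells with Cdh5 and Il24.

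The non-cycling PyMT-M tumor cells were not uniform. Leiden clustering of these cells alone gave 5 subclusters of 280, 289, 270, 181 and 333 cells, numbered 0 to 4, and 3 or 10 at other resolutions, and they carry no names. Without the barcodes with the highest Scrublet doublet scores (set to 6%, ties included) there were 4, the largest of 415 cells. Their leading genes come from the same cells as the clusters and are a description. Subcluster 0 was led by Rbms3, an RNA-binding protein (161 CPM there and 9.10 CPM in subcluster 4), Kcnip1 and Dkk2, a Wnt modulator (264 and 11.7 CPM). It had the most genes per cell, a median of 5231, and the most Cdh13, at 2112 CPM against 442 CPM in subcluster 1. Subcluster 1 was led by the mitotic gene Cdc20 (45.01 CPM), Lcn2 (10.6 CPM), the centromere gene Cenpa and Isg15 (182 CPM), a ubiquitin-like interferon-stimulated protein. The G2/M list summed to 1575 CPM in subcluster 1 and 1585 CPM in subcluster 0, and the S phase list to 1358 and 1769 CPM. Subcluster 2 was led by Ramp3, a receptor-modifying protein of the adrenomedullin receptor (24.02 CPM), by Dkk2, as subcluster 0 was (206 CPM), and by the Egfr ligand Areg (171 CPM).

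Subcluster 3 was the smallest, with 181 cells. Cxcl10, an interferon-induced chemokine, was at 155 CPM there and at 0.780 to 41.9 CPM in the others, and the antiviral gene Rsad2 at 231 against 5.62 to 58.7 CPM. Oasl1 and Ifit1, also interferon-stimulated, were at 83.98 and 242 CPM, against 6.24 to 17.8 and 16.2 to 99.6 CPM. The whole interferon-stimulated list summed to 3884, 5676, 3741, 3963 and 5076 CPM in subclusters 0 to 4, so its sum was not highest in subcluster 3, and Bst2 was lowest there at 726 CPM. Adm was at 486 against 19.97 to 138 CPM, and Cryab, a small heat shock protein, at 227 against 21.4 to 64.9 CPM. Hspa1b, a heat shock gene that dissociation can induce, was at 76.5 against 3.90 to 12.2 CPM, and its part in the split was not tested. The cells of subcluster 3 had the lowest cycle-gene level, a median of 60.4 CPM against 102 to 223 CPM in the others, and a median of 19079 UMIs, the lowest of the 5. The marker Lgals3 was at 2814 CPM in subcluster 3 and 1032 CPM in subcluster 0, Selenbp1 at 119.7 and 30.3 CPM, Ccl2 at 916 and 489.9 CPM, and Ccl7 at 250.01 and 101 CPM. All 5 subclusters held these chemokines, with Ccl2 lowest in subcluster 4 at 455 CPM. Krt8 and Rhox5 varied less, from 272 to 432 CPM and from 494 to 792 CPM. The leading genes of subcluster 4 included the transcripts Gm6634 and Gm14461 and the transcription factor Tshz1 (144 CPM).

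**Figure D5:**
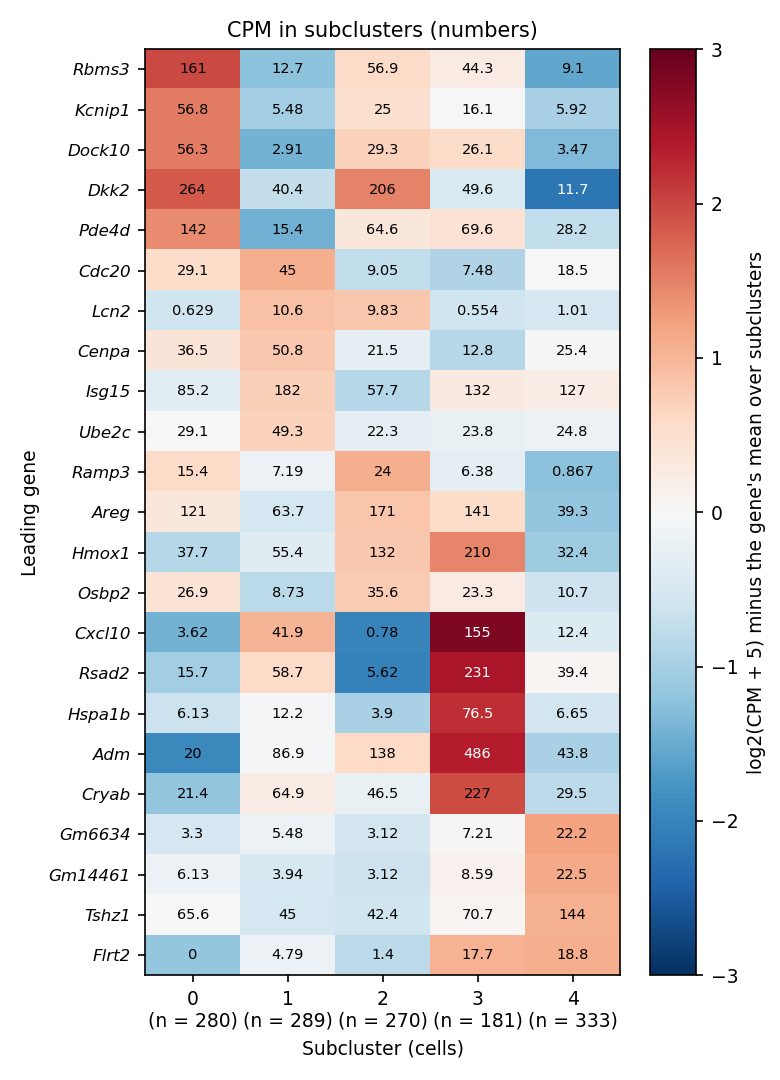
CPM (numbers in the boxes) of leading genes (y axis) in the 5 subclusters of non-cycling PyMT-M tumor cells (x axis, with cell numbers), colored by log2(CPM + 5) minus the gene's mean over subclusters. Cxcl10, Rsad2, Adm and Cryab were highest in subcluster 3, and Rbms3 and Dkk2 in subcluster 0.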

How the data were processed

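Both libraries were sorted CD31+ CD144+ cells from pooled tumors, sequenced with a 10x Genomics 3′ v3.1 kit. The authors deposited a matrix of UMI counts per gene and barcode for each library, with 33696 genes, made with Cell Ranger 8.0.0 and build mm39 per the submitters' processing notes. No cell labels were used. Counts of cells passing the gate were summed per library and scaled to CPM of all counts in those cells. Ratios carry exact 95% intervals of a ratio of Poisson counts, genes with at least 200 UMIs over both groups were ranked, and a count of 0 was set to 3 counts over the group. Low counts were kept in the totals. Genes were ranked by gene identifier, and a gene looked up by any of the 26 duplicated symbols was taken as the first entry of that symbol. Reads of near-identical copies (Rhox2, Xlr3, H2, Hspa1) could be split.

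Comparisons were PyMT-M against PyMT-N non-cycling tumor cells and, within PyMT-M, against cycling cells and cells with Cdh5 and Il24. With 1 library per group there was no test. The members and the 29 gene lists were chosen with earlier results of these data known. Genes were named where they belonged to the rule or the markers, had one of the 15 highest or lowest ratios between libraries or the 10 highest or lowest within PyMT-M (with at least 10 UMIs in the lower group), had at least 500 UMIs in one group and at most 3 in the other, had one of the 3 highest or lowest ratios of a list or belonged to a list of at most 16 genes, were among the 15 of highest CPM, or were among 5 leading genes of a subcluster. A few genes that met this rule are not reported here. Other genes were named after their values were seen. Subclusters came from 2000 variable genes, 30 principal components and Leiden clustering at resolution 0.5. Doublets were not removed. Scrublet's automatic threshold called 138 PyMT-N barcodes (1.98%) but 1 PyMT-M barcode, and why it called so few in PyMT-M was not tested. An alternative set to 6% left out the barcodes with the highest scores, 526 in PyMT-M and 430 in PyMT-N. Barcodes tied at the cutoff were left out too, so both shares were above 6%. The barcodes left out of PyMT-M held 89 of the 1353 cells. The code for the ratios was checked on simulated counts, which tests no difference between the libraries. Alternatives changed the gate limits, scaling, count minimum, depth and doublets. Python 3.11.15, scipy 1.17.1, pandas 2.3.3, scanpy 1.11.5 and matplotlib 3.10.9 were used.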

Additional observations from a re-analysis of the deposited data

Results flagged for a closer look

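Between non-cycling and cycling tumor cells 28 genes were compared in both libraries. Of these, 4 moved in opposite directions with counting intervals on either side of 0. The 28 were genes named in that comparison or at least 2-fold higher in it. Each of the 4 was at least 2-fold higher in PyMT-M, so its PyMT-M direction followed from the choice. The difference between the libraries was not tested, and the share of opposite directions over all ranked genes is not given. In PyMT-M the log2 ratio of non-cycling over cycling cells was 1.13 for Adm (1.06 to 1.19), 1.09 for Ndrg1 (1.04 to 1.14), 2.14 for Ccn2 (1.77 to 2.51) and 1.04 for Ung (0.89 to 1.19). In PyMT-N it was -0.78 for Adm (-1.47 to -0.019), -0.65 for Ndrg1 (-0.91 to -0.39), -0.34 for Ccn2 (-0.65 to -0.011) and -1.80 for Ung (-2.46 to -1.09). Only 127 PyMT-N cells were over the cycle limit.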

How the results depend on the processing

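With 1 library per group no replicate could be left out, and the intervals cover counting error only. Of 105 alternative counts and shares, 79 stayed within 1.5 times or within their interval. The share of PyMT-M barcodes (17.3%) became 15.6% with at least 10 tumor-gene UMIs, 16.2% with no endothelial or leukocyte UMI, 12.2% and 28.1% with cycle limits of 250 and 1000 CPM, and 7.11% with none of Gm43154, Nptx1, Il24 and Cdh5. The share of gated cells (29.9%) became 21.1% and 48.6% with these limits, 32.2% with none of the 4 genes and 32.8% after thinning. Genes higher in PyMT-M than PyMT-N (1862) numbered 1219 after thinning to 5000 UMIs, 1123 with a minimum of 1000 UMIs and 1075 in cells with no cycle-gene UMI, the last an alternative chosen after seeing the data. Lower genes (2708) numbered 1735 with a minimum of 1000 UMIs. Genes higher in non-cycling than cycling cells (18) numbered 33 at 250 CPM, 8 after thinning, and 69 and 6 with minimums of 50 and 1000 UMIs, and lower genes (284) numbered 181 at 1000 CPM. Against cells with Cdh5 and Il24, higher genes (257) numbered 162, 515 and 98 after thinning and with these minimums, and lower genes (162) numbered 41, 380 and 36. Resolutions of 1.0 and 0.25 gave 10 and 3 subclusters in place of 5. Leaving out the barcodes with the highest Scrublet scores (set to 6%, ties included) gave 4. A higher minimum leaves fewer genes to count, and the cause of the other shifts, thinning included, was not tested. In cells with no cycle-gene UMI the log2 ratios of Csf3 and Lcn2 reversed to 0.12 and 0.071. The median of the MHC class I list reversed to 0.020 with mitochondrial, ribosomal-protein and hemoglobin genes left out of the total. That of the checkpoint list, 0.020, reversed to -0.071 with a mean over cells, to -0.24 and -0.10 with minimums of 50 and 1000 UMIs, and to -0.0014 in cells with no cycle-gene UMI, and that of the endothelial markers, 2.72, to -1.85 with a minimum of 50 UMIs. Of 2633 alternative values of 176 named ratios past 2-fold, 2048 lay within the counting interval, 583 outside it and 2 reversed. A further 65 named ratios were not past 2-fold, and of their 961 alternative values 718 stayed and 243 moved. Of 427 alternative medians of the 29 lists, 258 stayed, 163 moved and 6 reversed. Chromosome medians were not run, since the reference used here is of another build.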
